A study of Mus musculus with 45 samples.

Results

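Ccl3, Ccl4, Ccl5, Ccl22 and Cxcl10 are 5 chemokine genes that activated B cells transcribe. They were picked by symbol from a table of 30317 genes, and all 5 passed the filter that 15614 genes passed. Transcript levels were followed in follicular B cells from the spleen, of the genotype B6.Blimp1GFP/+, in which the green fluorescent protein marks Blimp1, the factor that drives plasma cell formation. All 45 libraries come from cells of this genotype in co-culture with stroma. The stroma was OP9-DL1, the OP9 bone marrow line carrying the Notch ligand Delta-like 1 (DL1 cultures), or OP9 without it (OP9 cultures). Each stroma had groups with lipopolysaccharide (LPS) of Salmonella enterica at 20, 44 and 68 h, with anti-IgM F(ab')2 at 20, 44 and 68 h, and without stimulus at 68 h, and both stimuli were given at 10 µg/mL. A last group held Blimp1+ cells of DL1 cultures with LPS, for which the labels give no time. Each of these 15 groups had 3 libraries, and no label says whether the 3 were separate animals or cultures, so a p-value measures the spread between these libraries, which may be technical.

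Chemokines are small secreted proteins that steer leukocytes by way of G protein-coupled receptors. Ccl3 and Ccl4, the macrophage inflammatory proteins 1 alpha and 1 beta, are known as early products of B cells triggered through the antigen receptor. Ccl5 (RANTES) is known as a product of activated T cells, Ccl22 binds Ccr4 on helper and regulatory T cells and is known from dendritic cells and B cells, and Cxcl10 is an interferon-inducible ligand of Cxcr3. LPS signals through Toll-like receptor 4, anti-IgM through the antigen receptor, and Delta-like 1 through Notch receptors such as Notch2 of marginal zone B cells.

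In the GENCODE annotation of GRCm38, the build that the submitters' processing notes name, 3 of the genes lie on chromosome 11: Ccl5 at chr11:83525778-83530518 and Ccl3 at chr11:83647844-83649355 on the minus strand, and Ccl4 at chr11:83662584-83664683 on the plus strand. Cxcl10 lies at chr5:92346638-92348889 on the minus strand and Ccl22 at chr8:94745590-94751699 on the plus strand. Promoters were found for 3 of the 5 genes in the RefSeq table (GRCm38.p6), each from 250 bases before to 50 bases from the start on, written 5′ to 3′ on the gene's strand. All 3 are shown, and Ccl4 and Ccl5 had no entry. Of the genes shown, Ccl22 and Cxcl10 were called higher with LPS than with anti-IgM in 3 and 2 of the 6 comparisons of the stimuli, and Ccl3 lower in 5. Ccl5, higher with LPS in all 6, could not be looked at. Against unstimulated cells Cxcl10 was not called with LPS, and Ccl22 was higher with either stimulus. Capitals mark matches to an NF-kB motif (GGGA, then 4 bases of any kind, then CC, on either strand) and to an interferon response motif (GAAA, then 2 bases of any kind, then GAAA, on either strand). Ccl22, at chr8:94745434-94745733 on the plus strand, and Cxcl10, at chr5:92348840-92349139 on the minus strand, each hold matches, and Ccl3, at chr11:83649329-83649628 on the minus strand, holds none.
Ccl22: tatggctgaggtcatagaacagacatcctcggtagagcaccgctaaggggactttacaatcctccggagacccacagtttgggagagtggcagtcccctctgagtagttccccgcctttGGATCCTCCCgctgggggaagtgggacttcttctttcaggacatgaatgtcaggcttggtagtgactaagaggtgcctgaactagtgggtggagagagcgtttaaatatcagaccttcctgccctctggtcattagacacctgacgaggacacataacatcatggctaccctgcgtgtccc
Cxcl10: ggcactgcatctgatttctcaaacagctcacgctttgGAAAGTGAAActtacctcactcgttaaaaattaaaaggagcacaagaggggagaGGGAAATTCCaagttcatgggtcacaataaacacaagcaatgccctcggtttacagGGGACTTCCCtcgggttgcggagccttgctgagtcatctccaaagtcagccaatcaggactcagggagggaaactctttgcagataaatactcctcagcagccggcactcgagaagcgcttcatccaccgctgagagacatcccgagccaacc
Ccl3: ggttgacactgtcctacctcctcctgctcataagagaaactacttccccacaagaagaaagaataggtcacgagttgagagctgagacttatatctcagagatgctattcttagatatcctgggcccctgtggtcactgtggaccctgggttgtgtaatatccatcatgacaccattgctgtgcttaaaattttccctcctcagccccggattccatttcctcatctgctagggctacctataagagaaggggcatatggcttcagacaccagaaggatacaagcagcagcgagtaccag
The match in Ccl22, GGATCCTCCC, is to the NF-kB motif on the opposite strand and covers bases -131 to -122 from the start. Cxcl10 has the interferon motif as GAAAGTGAAA at -213 to -204 and the NF-kB motif as GGGAAATTCC at -159 to -150 and as GGGACTTCCC at -103 to -94, the last on both strands. Of 32851 mouse promoters of this length 20.7% hold the NF-kB letters and 3.44% the interferon letters. A match is a description of letters, not a binding site, and no link between matches and levels was tested.

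Levels are transcripts per 1000000 (TPM) divided by a size factor of the library, called scaled TPM, and differences between groups are on the scale of log2(scaled TPM + 1), which understates changes of genes near 0. A difference was called at an adjusted p below 0.05 (limma, Benjamini-Hochberg over the 15614 genes). Reads per library, solved from the authors' log2 table and in units of 1000000, ran from 3.07 to 29.1 with a median of 6.74. In 10 libraries Actb, cytoplasmic actin, stood at 12355 to 85337 TPM, against 217 to 2974 TPM in the other 35. These 10 were all 3 of DL1 with LPS at 20 h, all 3 of OP9 with anti-IgM at 20 h, and replicate 3 of unstimulated OP9, OP9 with LPS at 68 h, DL1 with LPS at 68 h and OP9 with anti-IgM at 68 h. They are called the high-Actb libraries, and each DL1 against OP9 comparison at 20 h has them on 1 side only, so the stroma and this property cannot be told apart there. The summed level of 9 B cell markers was 428 to 3147 scaled TPM in unstimulated OP9 cultures and 1004 to 5721 in the other 14 groups. The 16 OP9 stroma markers summed to 2099 to 19036 in unstimulated OP9 cultures and to 29.1 to 754 elsewhere. The summed T and NK (15 genes), monocyte (13), dendritic cell (9) and granulocyte (7) markers reached at most 252, 183, 344 and 13.7 scaled TPM. Of these genes 3, 3, 1 and 3 stayed below 1 TPM in every library, and their part in the results was not tested. In bulk RNA, fewer cells making a transcript and less transcript per cell cannot be told apart.

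The 5 genes had separate orders of level across the 15 groups. Ccl4 was highest in DL1 cultures with anti-IgM, at 521, 292 and 215 scaled TPM in the 20 h libraries, 236, 202 and 176 at 44 h and 121, 116 and 122 at 68 h. The first and second of these groups overlap, and each stands above all OP9 libraries, of which the highest group was anti-IgM at 44 h with 57.3, 54.0 and 54.4. Ccl3 followed the same order at its top, with means of 90.0 ± 21.0, 62.3 ± 2.78 and 20.6 ± 7.51 scaled TPM at 20, 44 and 68 h (SD, n = 3 each) in DL1 cultures with anti-IgM, except that OP9 with LPS at 20 h (33.5 ± 17.9) and OP9 with anti-IgM at 20 h (31.5 ± 6.73) came between the last of them and the others.

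Ccl5 was highest in unstimulated OP9 cultures, the group that holds stromal RNA, at 284, 359 and 117 scaled TPM. Next came Blimp1+ cells (70.5, 64.6 and 93.7), DL1 with LPS at 68 h (59.6, 81.1 and 54.6) and OP9 with LPS at 20 h (119, 13.96 and 59.5), and these 3 neighbours overlap. All 18 anti-IgM libraries held 0 to 4.09 scaled TPM of Ccl5, below the lowest LPS library at 8.97. Ccl22 was highest in OP9 cultures with LPS, at 95.3, 46.2 and 41.7 scaled TPM at 20 h, 34.7, 34.5 and 47.4 at 44 h and 15.9, 19.8 and 7.87 at 68 h. No library outside OP9 with LPS passed 9.92. Cxcl10 was the scarcest, listed at 0 in 19 of 45 libraries, and its highest group mean was 5.25 ± 1.00 in DL1 cultures with LPS at 44 h (SD, n = 3). Its highest single library was one with anti-IgM. OP9 with anti-IgM held 10.1, 0 and 0 at 20 h, all high-Actb libraries, and 0, 0 and 4.31 at 68 h, the last a high-Actb library. Of the transcript words of 31 bases of Cxcl10, 4.47% also occur in transcripts of Art3, against 0.539% shared for Ccl5 and none for Ccl3, Ccl4 and Ccl22, so its reads could be split with Art3 in the authors' counting.

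**Figure D1:**
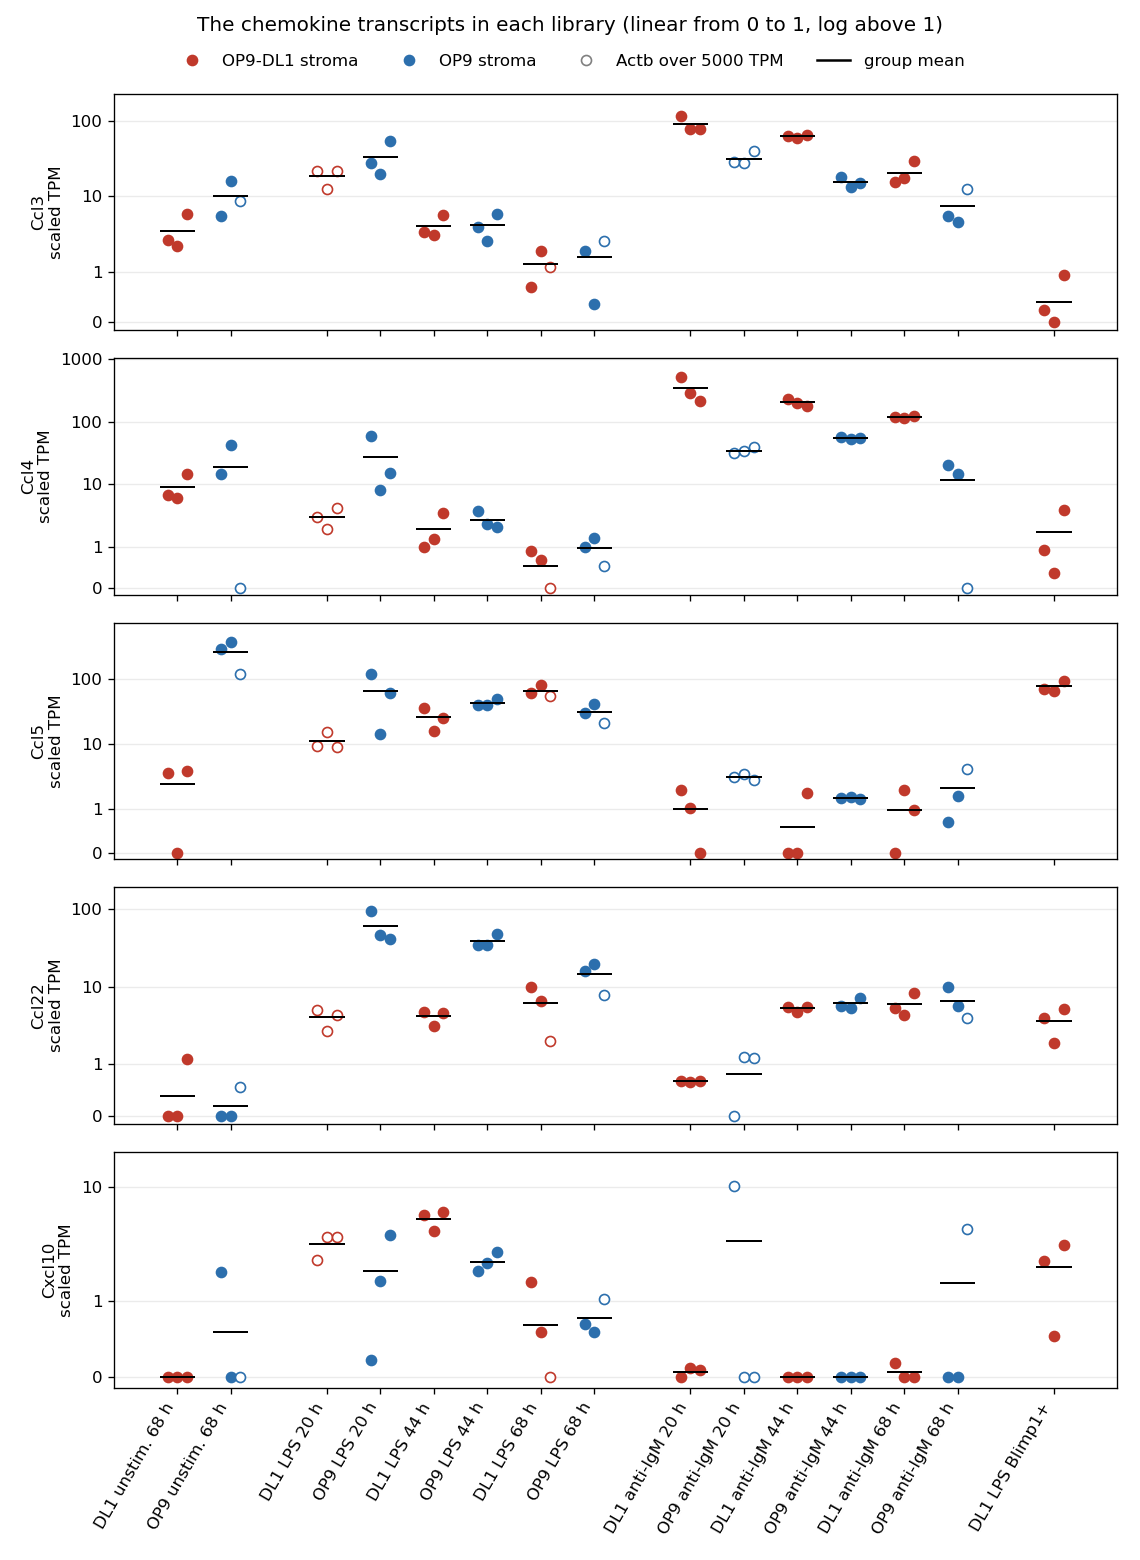
Scaled TPM of each gene (vertical axis, linear from 0 to 1 and log above) in the 45 libraries by group (horizontal axis), with DL1 cultures in red, OP9 cultures in blue, open circles for libraries with Actb over 5000 TPM and bars for group means. Ccl4 and Ccl3 are high with anti-IgM on DL1, Ccl5 with LPS and in unstimulated OP9 cultures, and Ccl22 in OP9 cultures with LPS.

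The stimuli split the 5 genes. Setting LPS against anti-IgM on the same stroma at the same time, Ccl5 was higher with LPS in all 6 comparisons, Ccl4 and Ccl3 were lower with LPS wherever they were called, and Cxcl10 was higher with LPS on DL1 at 20 and 44 h. In DL1 cultures 5 of 5 genes were called at 20 h, 4 at 44 h and 3 at 68 h, where 6.86%, 2.84% and 4.27% of all genes tested were called. In OP9 cultures 2, 4 and 2 were called at 20, 44 and 68 h, where 28.1%, 8.35% and 4.41% of all genes were. The comparison at 20 h has high-Actb libraries on the LPS side in DL1 and on the anti-IgM side in OP9.

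**Figure D2:**
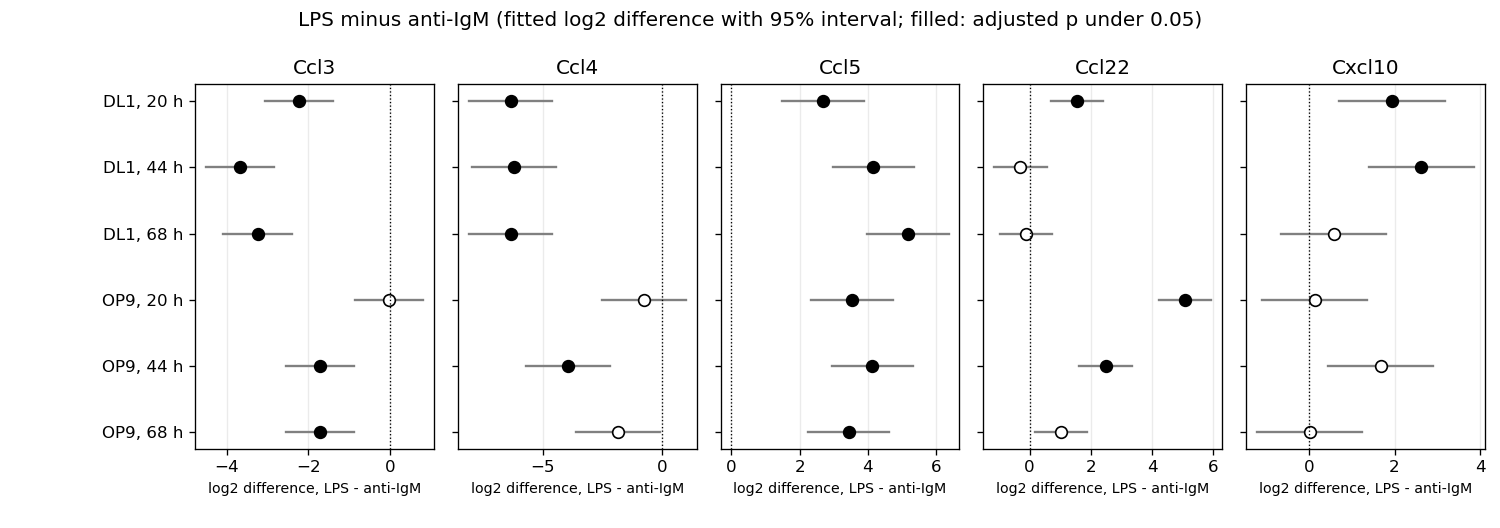
Fitted log2 difference of LPS minus anti-IgM (horizontal axis) with its 95% interval for each gene and each stroma and time (rows), filled where the adjusted p was below 0.05. Ccl5 lies to the right of 0 in all 6 rows and Ccl4 to the left of 0 in all 6, with 2 of its OP9 rows not called.

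Ccl4 had the widest contrast between the stimuli. In DL1 cultures at 44 h it stood at 0.992, 1.30 and 3.43 scaled TPM with LPS, against 236, 202 and 176 with anti-IgM. The groups lie far apart, and the difference was -6.23 ± 0.86 (log2 ± SE, adjusted p = 6.62e-06). At 20 and 68 h on DL1 it was -6.36 ± 0.86 at both times (adjusted p = 5.73e-06 and 4.39e-06). On OP9 at 20 h the groups overlap, at 59.7, 8.08 and 15.3 with LPS, against 31.5, 33.5 and 38.8 in the high-Actb libraries with anti-IgM. That difference was not called (-0.77 ± 0.86, adjusted p = 0.538), and with log2 Actb as a covariate it was -3.44 (adjusted p = 0.00846). On OP9 at 44 h Ccl4 stood at 3.72, 2.26 and 2.10 with LPS, against 57.3, 54.0 and 54.4 with anti-IgM, a difference of -3.95 ± 0.86 (adjusted p = 0.00219), lost with a pseudocount of 0.1 (adjusted p = 0.0532). On OP9 at 68 h it was 1.00, 1.38 and 0.53 with LPS, against 20.6, 14.7 and 0 with anti-IgM, where the 0 belongs to a high-Actb library. That comparison was not called (-1.85 ± 0.86, adjusted p = 0.267), and without that library it was -3.25 with an adjusted p of 0.0126. Ccl3 was also lower with LPS, by -2.23 ± 0.41, -3.67 ± 0.41 and -3.24 ± 0.41 on DL1 at 20, 44 and 68 h (adjusted p = 5.15e-04, 1.67e-07 and 1.26e-06). On OP9 it was -1.72 ± 0.41 at 44 h and -1.71 ± 0.41 at 68 h (adjusted p = 0.00532 and 0.00879), against -0.02 ± 0.41 at 20 h, not called. The 44 h call on OP9 was lost without replicate 2 of the LPS group (-1.48, adjusted p = 0.0506), and the 68 h call without replicate 2 of the LPS group (-1.30, adjusted p = 0.111) or replicate 3 of the anti-IgM group (-1.32, adjusted p = 0.0795), with the authors' log2 table (adjusted p = 0.0519) and with only the groups compared (adjusted p = 0.347).

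Ccl5 showed the opposite order. In DL1 cultures at 68 h it stood at 59.6, 81.1 and 54.6 scaled TPM with LPS, against 0, 1.98 and 0.988 with anti-IgM. The difference was 5.17 ± 0.59 (adjusted p = 1.73e-07), and on DL1 it was 2.69 ± 0.59 at 20 h and 4.16 ± 0.59 at 44 h (adjusted p = 0.00334 and 9.45e-06). On OP9 the difference was 3.54 ± 0.59, 4.13 ± 0.59 and 3.44 ± 0.59 at 20, 44 and 68 h (adjusted p = 6.47e-05, 6.85e-06 and 1.77e-04). All 6 Ccl5 calls held when each of the 45 libraries was left out in turn. With only the groups compared in the fit, those on OP9 at 20 and 68 h were lost (adjusted p = 0.0688 and 0.0732). The Ccl5 signal with LPS on OP9 came with stroma marker sums of 87.7 to 754 at 20 h, 46.5 to 164 at 44 h and 71.7 to 141 at 68 h, against 75.2 to 231, 85.3 to 179 and 102 to 170 with anti-IgM. Their part in the Ccl5 signal was not tested.

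For Ccl22 the fitted difference between the stimuli was larger on OP9 than on DL1 at 20 and 44 h. The test of this, with its limits, is given further below. On OP9 at 20 h it stood at 95.3, 46.2 and 41.7 scaled TPM with LPS, against 0, 1.25 and 1.21 with anti-IgM (5.08 ± 0.42, adjusted p = 2.71e-10), and at 44 h at 34.7, 34.5 and 47.4 with LPS, against 5.72, 5.37 and 7.17 with anti-IgM (2.48 ± 0.42, adjusted p = 9.88e-05). The 44 h call was lost with the authors' log2 table (adjusted p = 0.124). By 68 h the OP9 groups overlapped (1.04 ± 0.42, adjusted p = 0.186). On DL1 Ccl22 was 1.56 ± 0.42 higher with LPS at 20 h (adjusted p = 0.0181), which was not called when any of replicates 1 and 3 of the LPS group or any of the 3 anti-IgM libraries was left out (1.41 to 1.56, adjusted p = 0.0522 to 0.0814), and which was called under 7 of 10 alternatives. At 44 and 68 h on DL1 the differences were -0.30 (95% interval -1.15 to 0.56) and -0.11 (-0.97 to 0.74). Cxcl10 on DL1 stood at 5.63, 4.11 and 5.998 with LPS at 44 h and was listed at 0 in all 3 anti-IgM libraries (adjusted p = 0.00718). On DL1 at 20 h it was 2.27, 3.60 and 3.60 with LPS, against 0, 0.118 and 0.0927 with anti-IgM (1.94 ± 0.61, adjusted p = 0.0455), a call that held in 17 of the 45 fits with 1 library left out and was lost without a filter (adjusted p = 0.0854) and with log2 Actb as a covariate (1.89, adjusted p = 0.0564). On OP9 at 44 h it was 1.81, 2.14 and 2.68 with LPS and listed at 0 in the 3 anti-IgM libraries, which was not called (adjusted p = 0.0878). It was called under 6 of 10 alternatives, with adjusted p from 0.000761 to 0.16 over them, among them TPM as deposited (0.0208) and only the groups compared (0.000761).

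The next comparison asks what Delta-like 1 on the stroma does, by setting DL1 against OP9 cultures under each condition. Ccl22 was lower in DL1 cultures with LPS at 20 and 44 h. With anti-IgM, Ccl3 was higher in DL1 cultures at 20 and 44 h and Ccl4 at 20 and 68 h. Of the 5 genes, 2, 1 and 0 were called with LPS at 20, 44 and 68 h, where 8.58%, 0.16% and 0.0512% of all genes tested were called. With anti-IgM 2, 1 and 1 were called, where 20.1%, 0.845% and 1.32% of all genes were. Without stimulus 2 were called, where 26.8% of all genes were. At 68 h with LPS, where limma called none, 1 gene had an unadjusted p below 0.05.

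**Figure D3:**
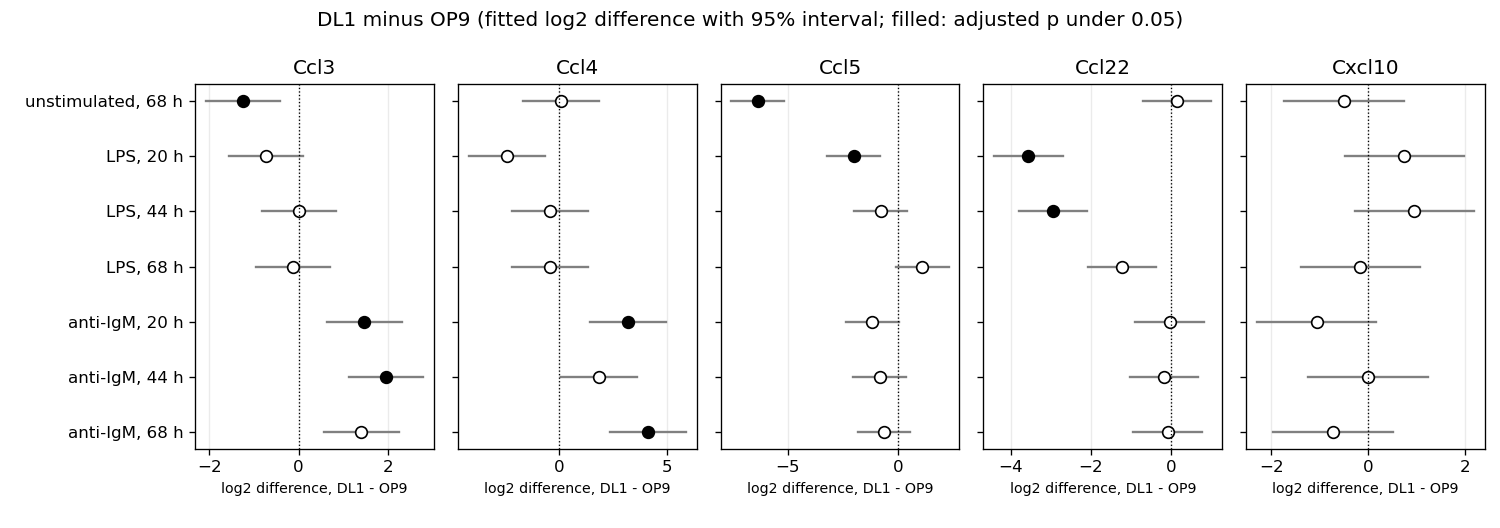
Fitted log2 difference of DL1 minus OP9 (horizontal axis) with its 95% interval for each gene under each condition (rows), filled where the adjusted p was below 0.05. Ccl22 lies left of 0 in the 3 LPS rows and near 0 in the anti-IgM rows, and Ccl3 and Ccl4 lie right of 0 in the 3 anti-IgM rows.

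Ccl22 with LPS at 44 h stood at 4.77, 3.09 and 4.65 scaled TPM in DL1 cultures, against 34.7, 34.5 and 47.4 in OP9 cultures. The groups do not overlap, none of these libraries is a high-Actb one, and the difference was -2.95 ± 0.42 (adjusted p = 2.24e-04). It was 1 of 3 genes lower in DL1 cultures in that comparison, 0.0192% of those tested. It was called in every fit that left out 1 library, with differences of -3.04 to -2.79, and lost with the authors' log2 table (-3.24, adjusted p = 0.783) and with a pseudocount of 0.1 (-3.20, adjusted p = 0.239). At 20 h Ccl22 was 5.04, 2.71 and 4.31 in DL1 cultures, all high-Actb libraries, against 95.3, 46.2 and 41.7 in OP9 cultures (-3.56 ± 0.42, adjusted p = 1.89e-06). With log2 Actb as a covariate that difference was called as well, and over all alternatives it ran from -3.98 to -2.92. At 68 h the values were 9.82, 6.59 and 1.97 in DL1 cultures, against 15.9, 19.8 and 7.87 in OP9 cultures, so the groups overlap (-1.23 ± 0.42, 95% interval -2.08 to -0.37, adjusted p = 0.908).

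Dendritic cells are a known source of Ccl22, and the 9 dendritic cell markers summed to 22.0 to 23.1 scaled TPM in DL1 with LPS at 20 h, against 44.2, 55.9 and 344 in OP9 with LPS at 20 h. Most of the highest sum is Flt3, at 339.5 scaled TPM in replicate 3. At 44 h the sums were 70.9 to 79.5 in DL1 cultures, against 59.97 to 67.3 in OP9 cultures. At 68 h with LPS they were 110 to 194 in DL1 cultures, against 44.8 to 96.7 in OP9 cultures. Of the 9 genes Itgax alone stayed below 1 TPM in every library, and the part of these cells in the Ccl22 differences was not tested.

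With anti-IgM no difference of Ccl22 between the stromas was called. At 44 h it stood at 5.50, 4.79 and 5.56 in DL1 cultures, against 5.72, 5.37 and 7.17 in OP9 cultures, and at 68 h at 5.30, 4.28 and 8.24 in DL1 cultures, against 9.92, 5.64 and 4.002 in OP9 cultures. The groups overlap at both times. The log2 differences were -0.17 (95% interval -1.02 to 0.69) and -0.08 (-0.94 to 0.78), with adjusted p of 1 and 0.948.

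Ccl4 with anti-IgM was several-fold higher on DL1. At 20 h it was 521, 292 and 215 scaled TPM in DL1 cultures, against 31.5, 33.5 and 38.8 in OP9 cultures (3.18 ± 0.86, adjusted p = 0.0133). At 44 h, with no high-Actb library on either side, it was 236, 202 and 176 in DL1 cultures, against 57.3, 54.0 and 54.4 in OP9 cultures. The 44 h groups do not overlap, yet the difference of 1.86 ± 0.86 was not called (adjusted p = 0.532) with the spread pooled over all 15 groups, and was called with those groups alone (adjusted p = 0.00107) and without the high-Actb libraries (adjusted p = 0.028). At 68 h Ccl4 was 121, 116 and 122 in DL1 cultures, against 20.6, 14.7 and 0 in OP9 cultures (4.12 ± 0.86, adjusted p = 0.0124). The 0 is that of a high-Actb library, and without it the difference was 2.71 and not called (adjusted p = 0.0965), as also without replicate 2 of the DL1 group (4.14, adjusted p = 0.0632), with a pseudocount of 0.1 (adjusted p = 0.0524) and with only the groups compared (adjusted p = 0.341). Without all high-Actb libraries the difference of 2.71 was called, and 9 of 11 alternatives called it. The 20 h call was lost without replicate 1 of the DL1 group (2.83, adjusted p = 0.06) or of the OP9 group (3.11, adjusted p = 0.0513), with a pseudocount of 0.1 (adjusted p = 0.0991) and with log2 Actb as a covariate (1.67, adjusted p = 0.254).

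Ccl3 with anti-IgM moved in the same direction. At 44 h it was 61.9, 59.7 and 65.2 scaled TPM in DL1 cultures, against 17.8, 13.3 and 14.9 in OP9 cultures (1.96 ± 0.41, adjusted p = 0.0128). At 20 h it was 114, 77.0 and 78.6 in DL1 cultures, against 28.0, 27.3 and 39.3 in OP9 cultures (1.48 ± 0.41, adjusted p = 0.0147), and at 68 h 15.3, 17.4 and 29.2 in DL1 cultures, against 5.45, 4.55 and 12.4 in OP9 cultures (1.41 ± 0.41, adjusted p = 0.0704, not called). The groups do not overlap at any of the 3 times. The call at 44 h was lost when any library of these groups other than replicate 1 of OP9 was left out (1.87 to 1.99, adjusted p = 0.0501 to 0.0888), with the authors' log2 table (adjusted p = 0.28) and with a pseudocount of 0.1 (adjusted p = 0.149), and that at 20 h without replicate 1 of the DL1 group (1.30, adjusted p = 0.0652) or of the OP9 group (1.41, adjusted p = 0.061), or with a pseudocount of 0.1 (adjusted p = 0.0697). The 68 h difference was called under 5 of 11 alternatives, among them the fit without the high-Actb libraries (1.80, adjusted p = 0.0163). With LPS no difference of Ccl3 between the stromas was called, with 95% intervals of -1.57 to 0.10, -0.83 to 0.84 and -0.96 to 0.71 at 20, 44 and 68 h.

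Ccl5 was 9.22, 15.1 and 8.97 scaled TPM in DL1 cultures with LPS at 20 h, against 119, 13.96 and 59.5 in OP9 cultures. The groups overlap, and the call (-2.02 ± 0.59, adjusted p = 0.0268) was lost without replicate 1 or 3 of either group (-1.92 to -1.35, adjusted p = 0.0778 to 0.191), and under 6 of 10 alternatives. Ccl4 was 2.96, 1.94 and 4.12 in DL1 cultures, against 59.7, 8.08 and 15.3 in OP9 cultures, without overlap and not called (-2.41 ± 0.86, adjusted p = 0.0764). None of 10 alternatives called it, 4 of the 45 fits with 1 library left out did, and with log2 Actb as a covariate the difference was -0.22 (adjusted p = 0.877). At 44 h Ccl5 was 35.8, 15.8 and 24.9 in DL1 cultures, against 40.1, 39.9 and 48.8 in OP9 cultures, and at 68 h 59.6, 81.1 and 54.6 in DL1 cultures, against 30.0, 41.3 and 20.8 in OP9 cultures. These groups do not overlap, lower in DL1 at 44 h and higher in DL1 at 68 h, and neither difference was called (-0.80 ± 0.59 and 1.09 ± 0.59, adjusted p of 1 for both). Cxcl10 with LPS at 44 h was 5.63, 4.11 and 5.998 in DL1 cultures, against 1.81, 2.14 and 2.68 in OP9 cultures, without overlap and not called (0.96 ± 0.61, adjusted p of 1).

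Without stimulus Ccl5 was 3.62, 0 and 3.80 scaled TPM in DL1 cultures, against 284, 359 and 117 in OP9 cultures (-6.36 ± 0.59, adjusted p = 4.07e-10). Of 13 stroma markers tested 13 were lower in DL1 in the same comparison, with a median log2 difference of -4.99 against -0.21 over all genes, and the part of this stromal RNA in Ccl5 was not tested. Ccl3 was 2.64, 2.20 and 5.75 in DL1 cultures, against 5.42, 16.1 and 8.62 in OP9 cultures. Those groups overlap, and the call (-1.25 ± 0.41, adjusted p = 0.0209) was made under 6 of 11 alternatives. It was lost with TPM as deposited (-0.80, adjusted p = 0.157), where the median of all genes moved to 0.15, and without replicate 1 or 2 of the DL1 group or replicate 2 of the OP9 group (-1.13, -1.04 and -0.88, adjusted p = 0.0787, 0.109 and 0.143). Ccl4 was 6.65, 5.99 and 14.5 in DL1 cultures, against 14.7, 41.9 and 0 in OP9 cultures, the 0 being a high-Actb library. Its difference was 0.10 ± 0.86, and -1.47 without the high-Actb libraries (adjusted p = 0.0404).

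The DL1 minus OP9 difference, called the DL1 effect below, was then compared between the stimuli at each time. At 20 h the DL1 minus OP9 difference with LPS, less that with anti-IgM, was -5.59 for Ccl4, -3.52 for Ccl22 and -2.21 for Ccl3 (adjusted p = 0.00336, 5.15e-04 and 0.00979), where 18.9% of all genes were called, and the high-Actb libraries sit on opposite stromas. With log2 Actb as a covariate those of Ccl4 and Ccl22 were -1.88 and -2.44 and not called (adjusted p = 0.412 and 0.0505). At 44 h, where 0.0961% of genes were called, Ccl22 had a difference of -2.78 ± 0.60 (adjusted p = 0.0496), which was called in 11 of the 45 fits with 1 library left out and under 5 of 11 alternatives. At 68 h none of the 5 was called by limma where 0.173% of all genes were, and 3 had an unadjusted p below 0.05.

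Against unstimulated cells at 68 h, Ccl22 was higher with either stimulus on either stroma, Ccl5 was higher with LPS on DL1, and Ccl3 and Ccl4 were higher with anti-IgM on DL1. On DL1, 3 of the 5 genes were called with LPS and 3 with anti-IgM, where 7.88% and 9.4% of all genes were called. On OP9, 3 and 2 were called, where 31.1% and 24.4% of all genes were, and where the unstimulated libraries carry the stromal RNA. Ccl22 stood at 9.82, 6.59 and 1.97 with LPS, at 5.30, 4.28 and 8.24 with anti-IgM and at 0, 0 and 1.16 without stimulus on DL1. The differences were 2.27 ± 0.42 with LPS and 2.38 ± 0.42 with anti-IgM (adjusted p = 3.24e-04 and 1.73e-04). On OP9 it stood at 15.9, 19.8 and 7.87 with LPS, at 9.92, 5.64 and 4.002 with anti-IgM and at 0, 0 and 0.567 without stimulus (3.65 ± 0.42 and 2.62 ± 0.42, adjusted p = 1.39e-08 and 8.03e-06). All stimulated libraries exceeded all unstimulated ones on both stromas. With only the groups compared in the fit, the LPS call on DL1 and the anti-IgM call on OP9 were lost (adjusted p = 0.124 and 0.0586).

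Ccl5 on DL1 was 59.6, 81.1 and 54.6 scaled TPM with LPS, against 3.62, 0 and 3.80 without stimulus (4.54 ± 0.59, adjusted p = 1.37e-06). With anti-IgM it was 0, 1.98 and 0.988, which was not called against the same unstimulated libraries (-0.63 ± 0.59, adjusted p = 0.571). On OP9 it was lower with LPS (-2.91 ± 0.59, adjusted p = 1.67e-04) and with anti-IgM (-6.35 ± 0.59, adjusted p = 2.99e-10) than in the unstimulated libraries with stromal RNA. Ccl4 on DL1 was 121, 116 and 122 with anti-IgM, against 6.65, 5.99 and 14.5 without stimulus (3.69 ± 0.86, adjusted p = 0.00421), lost with the authors' log2 table (adjusted p = 0.0543) and with a pseudocount of 0.1 (adjusted p = 0.0893). Ccl3 on DL1 was 15.3, 17.4 and 29.2 with anti-IgM, against 2.64, 2.20 and 5.75 without stimulus (2.28 ± 0.41, adjusted p = 2.20e-04). With LPS, Ccl4 was lower on DL1 at 0.892, 0.685 and 0 (-2.67 ± 0.86, adjusted p = 0.0497), a call made in 10 of the 45 fits with 1 library left out and under 6 of 11 alternatives. Ccl3 was lower with LPS on OP9, at 1.86, 0.365 and 2.53, against 5.42, 16.1 and 8.62 without stimulus (-2.08 ± 0.41, adjusted p = 1.19e-04), lost with only the groups compared (adjusted p = 0.0728). Ccl4 on OP9 with LPS was 1.00, 1.38 and 0.53, against 14.7, 41.9 and 0 without stimulus (-2.18 ± 0.86, adjusted p = 0.0527), and with the replicate block it was called (adjusted p = 0.0483). Without replicate 3 of unstimulated OP9, the high-Actb library at 0, it was -3.74 (adjusted p = 1.77e-04). The DL1 minus OP9 difference with anti-IgM exceeded that without stimulus by 2.66 for Ccl3, 4.02 for Ccl4 and 5.71 for Ccl5 (adjusted p = 0.00143, 0.0206 and 1.14e-05), where 16% of all genes were called, and with LPS by 7.45 for Ccl5 (adjusted p = 1.46e-07), where 16.5% were. The Ccl4 call was lost without replicate 3 of OP9 with anti-IgM (2.62, adjusted p = 0.0922) or replicate 1 or 2 of unstimulated OP9 (3.60 and 2.87, adjusted p = 0.0769 and 0.103), and 7 of 11 alternatives made it.

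Over time, the mean of Ccl3 was highest at 20 h with either stimulus on either stroma. With anti-IgM on DL1 the means were 90.0, 62.3 and 20.6 scaled TPM at 20, 44 and 68 h. On OP9 they were 31.5, 15.3 and 7.46, and those 20 h libraries are high-Actb ones. The DL1 step from 44 to 68 h, without overlap, was -1.60 and not called. It was called with the replicate block, only the groups compared, no high-Actb libraries or log2 Actb as covariate (adjusted p = 0.0167 to 0.0408). With LPS on DL1 Ccl3 stood at 21.9, 12.4 and 21.6 scaled TPM at 20 h, 3.42, 3.11 and 5.72 at 44 h and 0.709, 1.91 and 1.15 at 68 h. On OP9 it stood at 27.3, 19.6 and 53.7 at 20 h, 3.95, 2.57 and 5.85 at 44 h and 1.86, 0.365 and 2.53 at 68 h. With LPS the step from 20 to 44 h was called on DL1 (-1.94 ± 0.41, adjusted p = 0.0059) and on OP9 (-2.68 ± 0.41, adjusted p = 1.93e-04), and that from 44 to 68 h was not. All 3 DL1 libraries with LPS at 20 h are high-Actb ones and those at 44 h are not. Time and this property cannot be told apart in that DL1 step. The OP9 call was lost with only the groups compared (adjusted p = 0.222) and the DL1 call with the authors' log2 table (adjusted p = 0.104). Ccl22 with LPS on OP9 fell between 44 and 68 h (-1.43 ± 0.42, adjusted p = 0.031), a call lost when any library of both groups other than replicate 2 at 68 h was left out (-1.54 to -1.07, adjusted p = 0.0571 to 0.244) and made under 4 of 11 alternatives. With anti-IgM Ccl22 was late instead. On OP9 it was 0, 1.25 and 1.21 at 20 h and 5.72, 5.37 and 7.17 at 44 h (2.04 ± 0.42, adjusted p = 0.00165). The 20 h libraries there are high-Actb ones, and the call was lost with log2 Actb as a covariate (adjusted p = 0.0622). On DL1 it was 0.669, 0.658 and 0.677 at 20 h and 5.50, 4.79 and 5.56 at 44 h, which do not overlap either (1.91 ± 0.42, adjusted p = 0.08). That step passed without replicate 3 of DL1 with LPS at 68 h, of OP9 with LPS at 20 h or of unstimulated OP9, or without replicate 1 of OP9 with anti-IgM at 20 h (adjusted p = 0.0289 to 0.0491), and under 3 of 11 alternatives.

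Cxcl10 with LPS on DL1 was 2.27, 3.60 and 3.60 scaled TPM at 20 h, 5.63, 4.11 and 5.998 at 44 h and 1.46, 0.593 and 0 at 68 h. The last step was -1.97 ± 0.61 (adjusted p = 0.0417), lost when any library of both groups other than replicate 1 at 68 h was left out (-2.11 to -1.64, adjusted p = 0.0768 to 0.208) and made under 6 of 10 alternatives. Ccl5 with LPS on DL1 had group means of 11.1 ± 3.45, 25.5 ± 10.0 and 65.1 ± 14.1 at 20, 44 and 68 h (SD, n = 3 each), without overlap between neighbours and without a call at either step (1.10 ± 0.59 and 1.37 ± 0.59, adjusted p = 0.377 and 0.17). For Cxcl10 and Ccl5 alike, the DL1 libraries with LPS at 20 h and replicate 3 at 68 h are high-Actb ones. The step from 20 to 44 h on DL1 cannot be told apart from this property. Of the 5 genes 1 was called in each LPS step, where 1.65% and 6.88% of all genes were called on OP9 and 2.15% and 6.76% on DL1. With anti-IgM the first OP9 step had 1 call, where 23.9% of genes were called and its 20 h libraries are high-Actb ones. In the other 3 anti-IgM steps, where 0.0128%, 0.0576% and 0.173% of genes were called, limma called none, with an unadjusted p below 0.05 for 2, 1 and 1 of them.

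Blimp1+ cells of DL1 cultures with LPS had high Ccl5 and little Ccl3. As a check of the label, 5 plasmablast markers summed to 3649 to 3845 scaled TPM in them, above every other group. Ccl5 stood at 70.5, 64.6 and 93.7 scaled TPM in Blimp1+ cells, against 3.62, 0 and 3.80 in unstimulated DL1 cultures (4.76 ± 0.59, adjusted p = 2.05e-07). Ccl22 was 3.95, 1.89 and 5.18 in Blimp1+ cells, against 0, 0 and 1.16 in unstimulated cells (1.78 ± 0.42, adjusted p = 0.00256), and Ccl3 was 0.244, 0 and 0.938 in Blimp1+ cells, against 2.64, 2.20 and 5.75 in unstimulated cells (-1.68 ± 0.41, adjusted p = 0.00367). Ccl3 in Blimp1+ cells was also below DL1 with LPS at 44 h (-1.89 ± 0.41, adjusted p = 0.00141). These groups do not overlap, and the Ccl3 values rest on 0 to 3 estimated reads per Blimp1+ library. Of the 5 genes 3 were called against unstimulated cells and 1 against LPS at 44 h, where 14.5% and 12.3% of all genes were called. Against LPS at 68 h, where 2.84% of genes were called, limma called none of the 5 and none had an unadjusted p below 0.05. There Ccl5 was 70.5, 64.6 and 93.7 in Blimp1+ cells, against 59.6, 81.1 and 54.6 with LPS at 68 h, with a 95% interval of the log2 difference from -0.97 to 1.42.

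Of 31 further chemokine ligand genes in the table, 13 were tested and 14 stayed below 1 TPM in every library, among them Ccl17, the other ligand of Ccr4, and Cxcl9, another interferon-inducible ligand of Cxcr3. In unstimulated cultures 10 of the 13 were lower in DL1 than in OP9 and none was higher, where 18.2% of all genes were lower and 8.59% higher, with a median log2 difference of -3.41 against -0.21 over all genes. Cxcl12, a stromal chemokine that retains B cell precursors, was 67.5 ± 30.1 in DL1 cultures and 5205 ± 4399 in OP9 cultures (SD, n = 3 each), and Ccl9, another chemokine, averaged 1.34 ± 0.48 in DL1 cultures and 130.5 ± 110.1 in OP9 cultures. Cxcl5, a neutrophil attractant, and Ccl7, a monocyte attractant, differed in the same direction by -4.79 ± 0.77 and -3.94 ± 0.74. In this comparison the stroma markers were lower too, as given above for Ccl5. In each comparison of DL1 with OP9 under a stimulus at most 1 of the 13 was called. Of all genes 8.58%, 0.16% and 0.0512% were called there with LPS at 20, 44 and 68 h, and 20.1%, 0.845% and 1.32% with anti-IgM. Against anti-IgM on OP9 at 20 h, LPS had higher Cxcl1, Cxcl5, Ccl2 and Ccl7 (3.75 ± 0.71, 3.97 ± 0.77, 2.54 ± 0.72 and 2.58 ± 0.74) and lower Cxcl15. Of all genes 12.8% were higher and 15.3% lower in that comparison. Its high-Actb libraries are all on the anti-IgM side, so the stimulus and this property cannot be told apart there. The stroma marker sums there were 87.7 to 754 with LPS and 75.2 to 231 with anti-IgM, and their part was not tested.

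**Figure D4:**
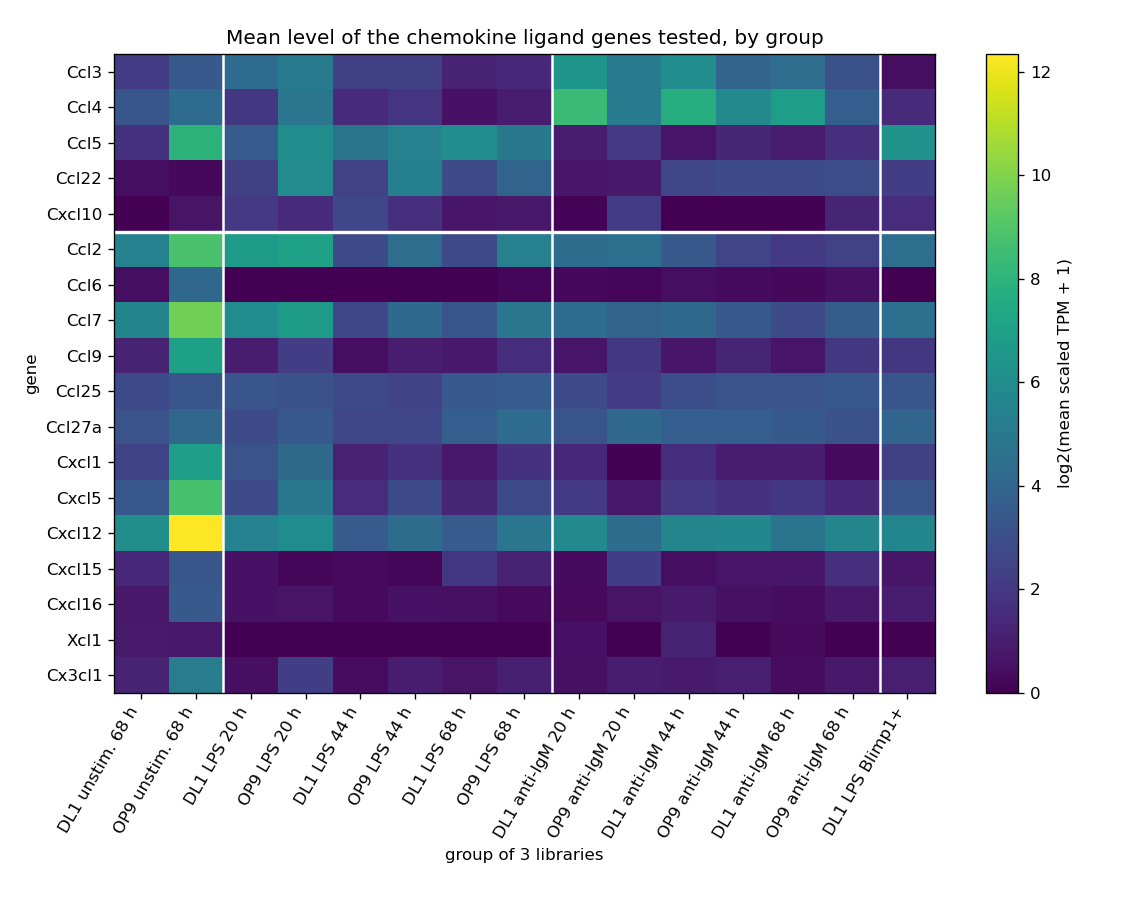
Mean level of the 5 chemokines (above the line) and of the 13 other chemokine ligand genes tested (below it) in the 15 groups, as log2(mean scaled TPM + 1), brighter for higher. In unstimulated cultures Ccl5 and 10 of the others are lower on DL1 than on OP9.

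Genes of the pathways upstream were read from lists. Interferon factors and response genes (22 tested) were higher with LPS than with anti-IgM for 8, 9 and 13 of them on DL1 at 20, 44 and 68 h and for 14, 8 and 6 on OP9, and lower for 1, 0 and 0 on DL1 and 2, 1 and 0 on OP9. Of all genes 3.24%, 1.42% and 2.68% were higher with LPS on DL1 at these times and 12.8%, 4.16% and 2.48% on OP9, and 3.62%, 1.42% and 1.59% were lower on DL1 and 15.3%, 4.19% and 1.92% on OP9. On DL1 at 68 h the median log2 difference was 1.99, against 0.10 over all genes, and Ifit1, Usp18, Gbp2 and Oasl2 were higher by 4.10 ± 0.52, 3.12 ± 0.32, 2.97 ± 0.42 and 2.84 ± 0.42. Cxcl10 itself was not called there. At 68 h on DL1 the 22 genes summed to 759 to 1016 scaled TPM without stimulus, 871 to 1216 with LPS and 406 to 463 with anti-IgM. On OP9 the sums were 662 to 935, 615 to 921 and 398 to 457 in the same order, the first in libraries with stromal RNA. Genes induced by calcium and ERK signals of the antigen receptor (11 tested) were lower with LPS for 8, 4 and 2 on DL1 and 5, 6 and 5 on OP9 at 20, 44 and 68 h, and none was higher, beside the same shares of all genes. Egr2, a transcription factor induced by that receptor, was 1.38 ± 1.09 with LPS and 73.5 ± 13.3 with anti-IgM on DL1 at 44 h (-5.04 ± 0.65, adjusted p = 2.37e-06). Egr1, Nfatc1 and Egr3 were lower by -3.15 ± 0.59, -2.66 ± 0.64 and -2.31 ± 0.51 there. The 12 genes of the calcium and ERK list summed to 823 to 968 scaled TPM in unstimulated DL1 cultures at 68 h. With anti-IgM on DL1 they summed to 759 to 837 at 44 h and 590 to 789 at 68 h. With LPS on DL1 they summed to 389 to 523 at 44 h, and to 167, 904 and 939 at 68 h. Unstimulated OP9 cultures held 184 to 349.

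In the DL1 against OP9 comparison with LPS at 20 h, 4 of 14 NF-kB genes were lower and none higher, where 4.75% of all genes were lower and 3.84% higher. They were Tnfaip3 (-2.15 ± 0.45), Nfkbie (-1.96 ± 0.47), Nfkbid (-1.63 ± 0.52) and Nfkbiz (-1.52 ± 0.41), all regulators of the pathway. Of 12 cytokine and costimulation genes Il6, Ltb, Cd86, Tnf and Cd80 were lower, with Il6 at 3.11 ± 3.39 in DL1 cultures and 25.9 ± 9.27 in OP9 cultures (-2.96 ± 0.52, adjusted p = 3.89e-04), and Il10 was higher (1.83 ± 0.59, adjusted p = 0.0437). This is the comparison with high-Actb libraries on the DL1 side, and their part in these differences was not tested. At 44 h, where the Ccl22 difference was called, 1 of the 14 NF-kB genes was, Tnip3 (0.75 ± 0.47 in DL1 cultures and 4.39 ± 0.93 in OP9 cultures). Of all genes 0.16% were called in that comparison. With anti-IgM at 44 h, where Ccl3 was higher on DL1, Ltb, a lymphotoxin subunit, was the 1 cytokine gene called, at 10.6 ± 4.13 in DL1 cultures and 51.6 ± 2.64 in OP9 cultures. There 0.845% of all genes were called.

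Among themselves, Ccl3 and Ccl4 ran together, with a Pearson correlation of log2 levels of 0.876 over the 15 group means. It was 0.804 over all 45 libraries and 0.905 over the 35 that are not high-Actb ones. Ccl5 ran against Ccl4 at -0.724 over the group means. These are descriptions, and the points share libraries and size factors. The ratio of Ccl4 to Ccl3 in TPM, which are per length, was 2.73 to 4.56, 2.70 to 3.81 and 4.19 to 7.93 on DL1 with anti-IgM at 20, 44 and 68 h, and 3.22 to 4.06 on OP9 with anti-IgM at 44 h. In the high-Actb OP9 libraries with anti-IgM at 20 h it was 0.987 to 1.23. With LPS it was 0.135 to 0.191 in the high-Actb DL1 libraries at 20 h, on 3.0 to 9.9 estimated Ccl4 reads a library, and 0.29 to 0.599 on DL1 at 44 h, 0.284 to 2.19 on OP9 at 20 h and 0.359 to 0.943 on OP9 at 44 h, where no library is a high-Actb one. At 68 h with LPS it was 0 to 1.26 on DL1 and 0.21 to 3.77 on OP9, on at most 6.9 estimated Ccl3 reads a library. In Blimp1+ libraries 1 and 3 it was 3.77 and 4.19. Without stimulus it was 2.52 to 2.73 on DL1 and 0 to 2.71 on OP9, and with anti-IgM on OP9 at 68 h 0 to 3.77. The group means most like Ccl4 were those of Fam122a (r = 0.927), Ahr (0.879), Eno3 (0.879) and Ccl3. For Ccl3 they were Xrcc5 (0.884), Ccl4, Bcl7c (0.860) and Snx12 (0.835), and for Ccl5 Zc3h12a (0.912), Cd80 (0.909), Nit2 (0.908) and Dynlt1b (0.904). For Ccl22 they were Fancl (0.829), Gmpr2 (0.827), Cd70 (0.826) and Lta4h (0.823), and for Cxcl10 Park7 (0.860), Snupn (0.859), Polr2g (0.854) and Mrpl57 (0.853). These genes were picked for their values over group means. Over the 45 libraries the values were lower, among them 0.55 for Bcl7c with Ccl3 and 0.582 to 0.671 for the genes of Ccl22.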

How the data were processed

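Transcript levels were taken from the authors' deposited table of TPM per gene symbol for 45 libraries. A second table that the authors deposited holds log2 values of estimated reads per 1000000, whose floor gave each library's depth. Per the submitters' processing notes kallisto and limma were used on GRCm38 and mm10, with no version named, and how transcripts were summed to genes is not given in the sources used here. The TPM listed sum to 92.1% to 96.0% of 1000000 per library. Per the labels, polyA RNA of sorted cells went through a SMART-seq kit and Nextera XT.

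To scale libraries, median-ratio factors were computed (7096 genes with at least 1 TPM in every library, range 0.418 to 1.33), TPM divided by them, and log2 taken with a pseudocount of 1. Genes with at least 1 TPM in at least 3 libraries were tested (15614 of 30317). One limma model (version 3.58.1, R 4.3.3) with 15 group means, trend and robust moderation was fitted to all 45 libraries, with Benjamini-Hochberg adjustment over all genes in each of 33 contrasts. Calls were made where that value was below 0.05. Only limma was run. The script was tested on simulated data. The 5 genes, the contrasts and the lists were chosen with earlier results of these data known. Named genes are the 5, for each the 4 genes with the most similar group means (at least 10 scaled TPM in a group), and up to 4 called members of each list with the largest change. Actb, Flt3, Itgax and Cxcl15 were named after their values were seen. High-Actb libraries are those over 5000 TPM of Actb. Same-numbered libraries deviated together (every correlation over 0.1) in 4 of 28 contrasts of 2 groups, each with a high-Actb replicate 3 on both sides, and no label says that numbers pair libraries. No 2 libraries correlated above 0.985. The other settings were, for scaling, deposited TPM, the authors' log2 values, quantiles and no immunoglobulin genes; for low values, 0.1 as pseudocount and a filter of 5 TPM or none; and for the design, the replicate block, only the groups compared, no high-Actb libraries, log2 Actb as covariate, and each library left out.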

Additional observations from a re-analysis of the deposited data

Results flagged for a closer look

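The DL1 minus OP9 difference itself differed between conditions in 8 cases by its own limma test over all genes, each chosen by that test. At 20 h, LPS less anti-IgM gave -2.21 for Ccl3, -5.59 for Ccl4 and -3.52 for Ccl22, with the libraries high in Actb on opposite stromas. At 44 h it gave -2.78 for Ccl22, where none of the libraries compared is high in Actb. At 68 h, LPS less no stimulus gave 7.45 for Ccl5. Anti-IgM less no stimulus gave 2.66 for Ccl3, 4.02 for Ccl4 and 5.71 for Ccl5. The unstimulated OP9 libraries in these last 4 carry stroma marker sums of 2099 to 19036 scaled TPM, against 130 to 272 in unstimulated DL1 cultures, and their part was not tested.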

How the results depend on the processing

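Of 165 pairs of gene and comparison 57 were called, 26 of them under every alternative and with each library left out, and no called pair changed sign under any alternative run. DL1 against OP9 calls numbered 9, with 5 in the authors' log2 table and 2 with a pseudocount of 0.1. Time calls numbered 5, with 2 in the authors' log2 table, 3 with a pseudocount of 0.1, 3 without a filter and 8 with the replicate block. Blimp1+ calls numbered 4, and 7 both with only the groups compared and without high-Actb libraries. Calls on the difference of the DL1 effect numbered 8, with 5 in the authors' log2 table and 5 with a pseudocount of 0.1. Stimulus and LPS against anti-IgM calls (11 and 20) stayed within 1.5 times. Leaving out 1 library gave 7 to 11, 10 to 12, 18 to 21, 4 to 7, 4 to 5 and 6 to 9 calls for the DL1, stimulus, LPS against anti-IgM, time, Blimp1+ and difference comparisons. The replicate block gave 10, 12, 20, 8, 4 and 7 in the same order, and replicate numbers are not stated to pair libraries. Scaling moved the median of all genes, for DL1 minus OP9 without stimulus -0.21, 0.15 with TPM as deposited and 0.29 with the authors' log2 table. Without high-Actb libraries the 20 h comparisons of DL1 with OP9 and of LPS with anti-IgM could not be fitted. The same holds for the difference of the DL1 effect at 20 h. It also holds for the steps from 20 to 44 h with LPS on DL1 and with anti-IgM on OP9. The cause of these changes was not tested. Many levels of Ccl3, Ccl4, Ccl5 and Cxcl10 and some of Ccl22 rest on fewer than 10 estimated reads, and intervals there cover the spread between libraries only.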

Other observations

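Transcripts of receptors of these chemokines were also found in the libraries, and which cells made them was not tested. Ccr1, a receptor of Ccl3 and Ccl5, was lower with LPS than with anti-IgM in all 6 comparisons. On DL1 at 68 h it was 0.141 ± 0.168 scaled TPM with LPS and 13.3 ± 3.19 with anti-IgM (SD, n = 3 each), a log2 difference of -3.63 ± 0.29 (limma, adjusted p = 5.53e-11). The monocyte markers summed to 17.0 to 27.8 with LPS and 41.4 to 50.7 with anti-IgM there. On OP9 at 20 h these sums overlapped, at 17.7 to 28.0 with LPS and 12.9 to 33.9 with anti-IgM. Their part in Ccr1 was not tested. Ccr1 on DL1 was 3.81 ± 1.04 with anti-IgM at 44 h, against 11.2 ± 1.10 on OP9 (-1.36 ± 0.29, adjusted p = 0.0129), opposite in direction to Ccl3 there. Ackr2, a scavenger of inflammatory chemokines, was 27.6 ± 13.8 with LPS and 3.29 ± 1.53 with anti-IgM on OP9 at 68 h (2.67 ± 0.44, adjusted p = 1.13e-04). Cxcr3, the receptor of Cxcl10, was 2.89 ± 1.13 on DL1 and 0.213 ± 0.369 on OP9 with LPS at 20 h (1.68 ± 0.42, adjusted p = 0.00957), where the DL1 libraries are high in Actb.

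Ccr6, the receptor of Ccl20, was also lower with LPS than with anti-IgM in all 6 comparisons, at 8.39 ± 1.59 with LPS and 241 ± 30.5 with anti-IgM on OP9 at 44 h (-4.69 ± 0.44, adjusted p = 2.99e-09). Its ligand Ccl20 stayed below 1 TPM in every library.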
